A study of Danio rerio with 6 samples.

Results

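The enzymes of glycolysis and gluconeogenesis were followed at the RNA level in zebrafish (Danio rerio) embryos. The members were the genes of the deposited table whose symbol equals one of 36 enzyme gene names, and 35 of 31624 genes matched, spread over 13 enzyme steps. The name pklr matched no row in that spelling, and a row written PKLR in capitals was kept apart. There were 3 libraries of embryos with the genotype label Trdmt1 knockout and 3 of control embryos with the label wildtype. Trdmt1 is an RNA methyltransferase that acts on transfer RNAs, and the stated purpose was to examine its function. No further allele, agent or treatment is named for either group. The kind of knockout allele, the strain, the embryo age and the number of embryos in a library are not given in the labels used here. They do not say whether libraries of 1 group come from different clutches, and each p-value therefore reflects the spread among the 6 libraries alone, which may be technical.

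Glycolysis breaks glucose down to pyruvate and yields ATP, and lactate dehydrogenase then interconverts pyruvate and lactate. Gluconeogenesis runs most of the same reversible steps backwards and bypasses the irreversible ones with enzymes of its own, among them phosphoenolpyruvate carboxykinase and fructose-bisphosphatase. Vertebrates use different forms of the same enzyme in muscle, nerve and liver, and teleost fishes kept duplicate copies of many of these genes, marked a and b. Forms were sorted by hand, mostly by the tissue for which the enzyme is named. The form pkma was put among the muscle forms, and its duplicate pkmb, which has the same M-type name, was left without a class. Likewise aldoab was put among the muscle forms, while its duplicate aldoaa and the form ldha were left without a class. The sorting gave 7 muscle forms (pfkma, pfkmb, aldoab, pgam2, eno3, pkma and fbp2), 3 neural forms (aldoca, aldocb and eno2), 4 liver forms (gck, pck1, fbp1a and fbp1b) and 21 without a class.

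Reads counted in genes ranged from 12877132 to 18721589 per library. The targeted transcript, trdmt1, stood at 1.08 to 3.10 RPKM (reads per kilobase of exon, scaled to the number of counted reads) in controls and 1.07 to 1.59 RPKM in knockouts. The groups overlapped (log2 fold change -0.70 ± 0.38, SE; edgeR adjusted p = 0.746), so its level does not check the labels. Knockout 3 stood apart in tissue markers. The summed level of 16 photoreceptor markers, held by 17 rows of the table, was 1240.2 RPKM there and 44.5 to 176 RPKM in the other 5 libraries. The 13 neuron markers found summed to 687 RPKM against 428 to 540 RPKM, and the hatching gland markers to 18.3 RPKM against 110.4 to 243 RPKM. Skeletal muscle markers summed to 39194 to 47380 RPKM in controls and 42310.5 to 42573 RPKM in knockouts. No marker row was at 0 in all 6 libraries. Over all genes, the chi-square divided by its degrees of freedom was 1.58 between knockouts 1 and 2 and 11.7 to 75.6 in the other 14 library pairs. Knockouts 1 and 2 thus differed by more than sampling noise alone, though far less than other pairs. This value cannot tell separate samples from repeat preparations of the same RNA. They were counted as 2 libraries because they are labelled so. The SDs with n = 3, the p-values and the counts over all 3 knockouts rest on that choice.

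Most enzyme genes had higher values in knockout than in control embryos, but no single member passed the test across all genes. Of the 34 members that passed the filter on low counts, 31 had a log2 fold change above 0, where 49.5% of all 20555 tested genes did. The median log2 fold change was 0.36 over the 34 members and -0.0038 over all tested genes. With edgeR's quasi-likelihood test and a Benjamini-Hochberg adjusted p under 0.05 as the threshold, 0 members were higher, against 0.102% of all tested genes, and 0 were lower, against 0.0146%. At an unadjusted p under 0.05, 7 members were higher (aldoaa, eno1a, gck, gpia, pck1, pgam1b and pkmb), against 4.06% of all tested genes, and 1 was lower (fbp1b), against 3.41%. Without control 1 only 1 member was higher at that unadjusted level (background 3.53%), and without control 2 there were 2 (background 2.87%). Without knockout 3 there were 7 higher (background 5.99%) and 1 lower (background 5.99%). In that fit edgeR's adjusted p called 1 higher, pck1 (background 0.789%), and 0 lower (background 0.196%). The fit rests on knockouts 1 and 2, which differed far less than other library pairs. DESeq2, run as an alternative, called 1 member, pck1, higher (background 0.915%) and 0 lower (background 0.224%).

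All 3 knockout libraries lay above all 3 controls for 10 of the 34 members, against 6.3% of all tested genes. The reverse held for 1 member, fbp1b, against 9.0%. For the remaining 23 the groups overlapped. Among the 3 knockouts the shift was uneven: the median of the members relative to the control mean was 0.15, 0.18 and 0.56 on the log2 scale in knockouts 1, 2 and 3, and -0.12 to 0.08 in the controls. Knockout 3 was the highest of the 6 libraries in 24 of the 35 members and the lowest in 6, whereas it was highest in 28.6% and lowest in 33.0% of all tested genes. The median log2 fold change was 0.20 without knockout 3, and 26 of 34 members were positive. Over all 20910 genes tested in that fit the median was -0.018, and 47.3% were positive. The gene aldoca, a neural aldolase form, was too low to test, with 2 to 6 reads in 5 libraries and 61 in knockout 3. By mean RPKM over the 6 libraries, 13 members stood at 100 or more, 16 between 10 and 100 and 6 under 10.

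**Figure D1:**
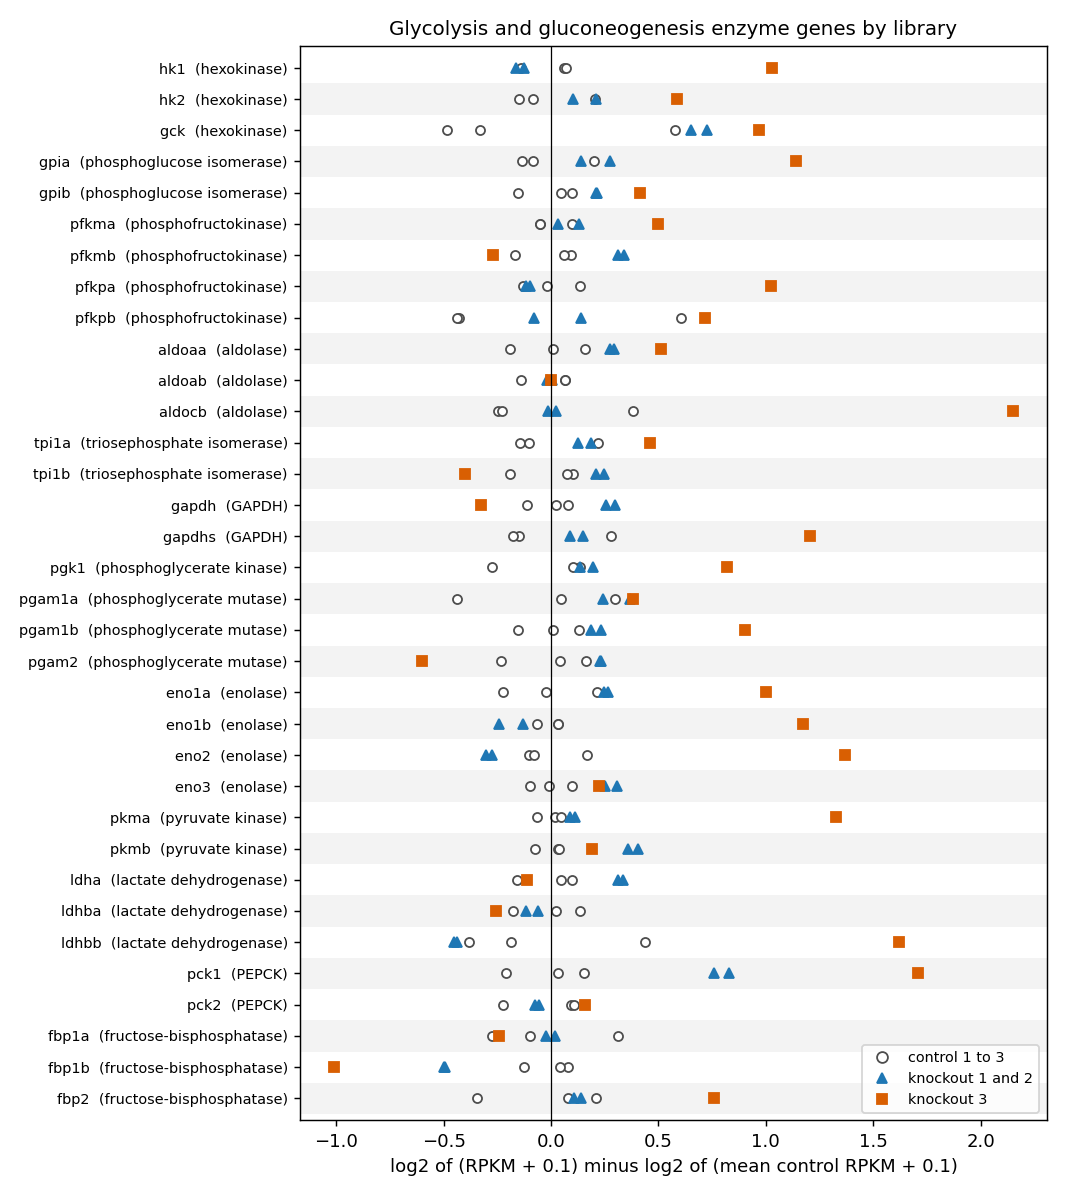
Level of each of the 34 tested members in each library, as log2 of RPKM plus 0.1 relative to the mean of the controls, in order of enzyme step. Open circles are controls, triangles knockouts 1 and 2, and squares knockout 3. Knockout 3 lies far to the right for forms such as aldocb and ldhbb and to the left for pgam2 and fbp1b, while pck1 is right of all controls in all 3 knockouts.

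The steps specific to gluconeogenesis held the 2 members with the lowest adjusted p-values, pck1 and fbp1b, and their differences went in opposite directions. The gene pck1 (ENSDARG00000013522), for the cytosolic phosphoenolpyruvate carboxykinase that makes phosphoenolpyruvate from oxaloacetate, stood at 24.3, 20.6 and 26.4 RPKM in controls 1, 2 and 3. In knockouts 1, 2 and 3 it stood at 40.2, 42.2 and 78.0 RPKM. Every knockout was above every control, and knockout 3 was the highest. The means were 23.8 ± 2.98 and 53.5 ± 21.2 RPKM (SD, n = 3 each), a 2.31-fold difference and a log2 fold change of 1.205 ± 0.26 (SE; edgeR adjusted p = 0.195). Without knockout 3 the log2 fold change was 0.83 and the edgeR adjusted p was 0.0249. That fit rests on knockouts 1 and 2, with a chi-square divided by its degrees of freedom of 1.58, against 18.7 to 22.6 between controls. The spread within the knockouts is thus very small there. With the counts of knockouts 1 and 2 summed, the edgeR adjusted p for pck1 was 0.164. DESeq2 on 6 libraries gave an adjusted p of 0.00179. In the other edgeR alternatives the adjusted p ran from 0.102 with the replicate number as a block to 0.876 without control 2.

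The mitochondrial form pck2 showed no such separation. It stood at 36.6, 29.4 and 37.0 RPKM in controls against 32.6, 33.0 and 38.3 RPKM in knockouts, so the groups overlapped (log2 fold change 0.05 ± 0.16, SE; edgeR adjusted p = 0.967). The share of pck1 in the summed RPKM of both genes was therefore 39.9%, 41.1% and 41.7% in controls and 55.2%, 56.1% and 67.1% in knockouts. Those groups did not overlap, and without knockout 3 the difference of 18.6 percentage points between the means was 14.8.

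The summed level of fructose-bisphosphatase was lower in every knockout, but of its 3 genes fbp1b alone was below all controls. The liver form fbp1b (ENSDARG00000020364), whose product removes a phosphate from fructose 1,6-bisphosphate, stood at 132, 129 and 115 RPKM in controls compared with 88.8, 89.2 and 62.3 RPKM in knockouts. All knockouts were below all controls, with means of 125 ± 9.29 and 80.1 ± 15.4 RPKM (SD, n = 3 each). The log2 fold change was -0.61 ± 0.17 (SE; edgeR adjusted p = 0.389), and it was -0.45 without knockout 3. Its duplicate fbp1a stood at 17.4 to 26.2 RPKM in controls and 17.8 to 21.3 RPKM in knockouts, with overlap. The muscle form fbp2 stood at 11.2 to 16.4 RPKM in controls, at 15.7 and 15.3 RPKM in knockouts 1 and 2 and at 24.1 RPKM in knockout 3. In sum the step stood at 166, 164 and 152 RPKM in controls and at 126, 125 and 104 RPKM in knockouts. The ratio of this sum to that of the opposing enzyme, phosphofructokinase, was 2.97, 2.80 and 2.68 in controls and 2.04, 1.98 and 1.32 in knockouts, without overlap. For the other opposing pair, phosphoenolpyruvate carboxykinase over pyruvate kinase, the ratio was 0.316, 0.278 and 0.327 in controls and 0.314, 0.315 and 0.418 in knockouts, and the groups overlapped.

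Liver markers were also lower in sum in every knockout. The 13 listed genes, held by 14 rows, summed to 5616 to 7405 RPKM in controls and 4023 to 5252 RPKM in knockouts. Such a sum rests mostly on the most abundant genes. Of the 12 tested, 0 passed by edgeR (background 0.102% higher and 0.0146% lower), and the median log2 fold change was -0.31. In knockout 3, 2 of the 14 rows stood at least 2-fold above the mean of knockouts 1 and 2 (background 6.94%). None stood at least 2-fold below it (background 5.79%). In bulk embryos fewer cells of a type and less RNA per cell cannot be told apart. The part of liver tissue in the values of fbp1b and pck1 was not tested.

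**Figure D2:**
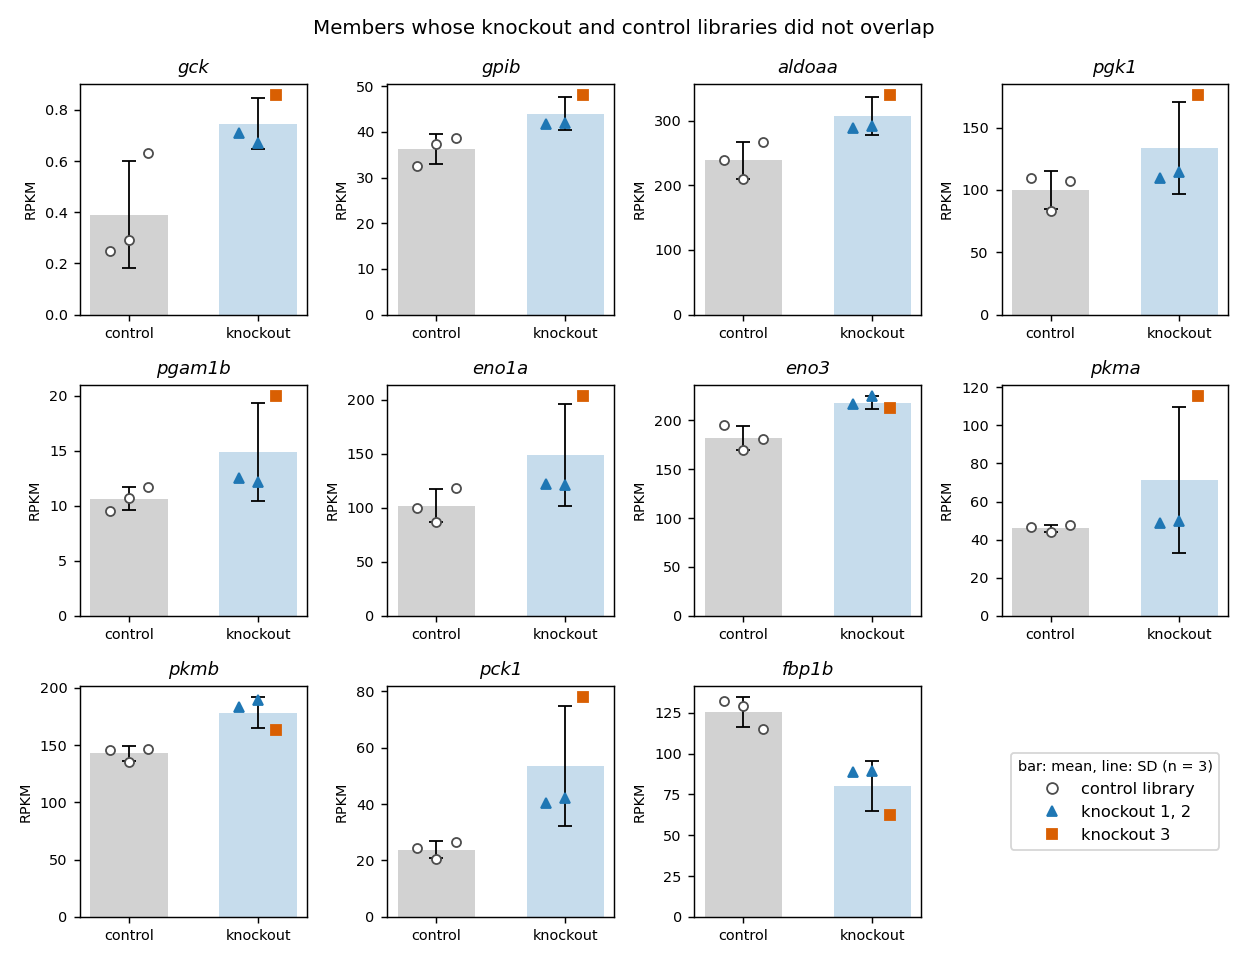
RPKM of the 11 members whose knockout and control libraries did not overlap. Bars are means and lines SD over 3 libraries, with open circles for controls, triangles for knockouts 1 and 2 and squares for knockout 3. Only fbp1b is lower in knockouts, and pck1 shows the widest gap between the groups relative to the control mean.

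At the entry to glycolysis, hexokinases trap glucose as glucose 6-phosphate. The most abundant form, hk1, stood at 19.2, 16.7 and 19.3 RPKM in controls, at 16.9 and 16.4 RPKM in knockouts 1 and 2 and at 37.7 RPKM in knockout 3. Its log2 fold change of 0.40 ± 0.31 (SE; edgeR adjusted p = 0.802) turned to -0.11 without knockout 3. The second form, hk2, overlapped between groups at 4.66 to 5.98 and 5.56 to 7.81 RPKM. Glucokinase, gck, the liver and islet form, was low, with 12, 14 and 21 reads in controls and 29, 28 and 34 reads in knockouts. In RPKM these were 0.25, 0.29 and 0.63 against 0.71, 0.67 and 0.86, all knockouts above all controls by a narrow margin over control 3. The log2 fold change was 1.01 ± 0.44 (SE; edgeR adjusted p = 0.658).

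Phosphoglucose isomerase, which turns glucose 6-phosphate into fructose 6-phosphate, had 2 members of similar level. The gene gpia stood at 40.3, 38.9 and 49.1 RPKM in controls against 47.2, 51.8 and 94.4 RPKM in knockouts. Knockout 1 was within the control range, and the log2 fold change of 0.63 ± 0.26 (SE; edgeR adjusted p = 0.643) was 0.25 without knockout 3. Its duplicate gpib was higher in every knockout, at 41.8, 42.0 and 48.2 RPKM against 32.5, 37.3 and 38.7 RPKM in controls (log2 fold change 0.32 ± 0.15, SE; edgeR adjusted p = 0.687).

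Phosphofructokinase, the committing and regulated step of glycolysis, was spread over 4 members. The most abundant, the muscle form pfkmb, stood at 23.8, 19.9 and 23.3 RPKM in controls, at 27.8 and 28.3 RPKM in knockouts 1 and 2 and at 18.5 RPKM in knockout 3. Knockouts 1 and 2 were thus above and knockout 3 below all controls. The platelet form pfkpa stood at 15.5 to 18.7 RPKM in controls and within that range, at 15.7 and 15.9 RPKM, in knockouts 1 and 2. In knockout 3 it was above all controls, at 34.7 RPKM. The muscle form pfkma stood at 15.2 to 16.9 RPKM in controls and 16.1 to 22.2 RPKM in knockouts. The lowest, pfkpb, stood at 1.45 to 3.09 and 1.89 to 3.35 RPKM, and the groups overlapped for all 4 genes. Their sum nevertheless separated, at 56.0, 58.6 and 56.7 RPKM in controls and 61.8, 63.3 and 78.8 RPKM in knockouts. The liver-type genes pfkla and pfklb are not members and were left out of this sum. In knockouts 1 and 2 pfkla stood at 3.48 and 3.56 RPKM against 4.99 to 6.41 RPKM in controls, while pfklb overlapped. The separation would thus be narrower with them.

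Aldolase cleaves fructose 1,6-bisphosphate into triose phosphates. Its ubiquitous form aldoaa was higher in every knockout, at 289, 293 and 341 RPKM against 240.0, 209.5 and 267 RPKM in controls. The log2 fold change was 0.40 ± 0.16 (SE; edgeR adjusted p = 0.635), and 0.32 without knockout 3. The muscle form aldoab, the most abundant, stood at 311, 311 and 269.9 RPKM in controls compared with 293, 298 and 297 RPKM in knockouts, fully within the control range. The neural form aldocb stood at 29.6, 29.9 and 45.7 RPKM in controls, with 35.7 and 34.8 RPKM in knockouts 1 and 2, but at 156 RPKM in knockout 3. Triosephosphate isomerase, which interconverts the triose phosphates, came mostly from tpi1b. This gene stood at 204, 166 and 199.6 RPKM in controls and at 219.5, 226 and 144 RPKM in knockouts 1, 2 and 3, so the knockouts lay on both sides of the controls. The minor form tpi1a overlapped at 9.59 to 12.4 and 11.6 to 14.6 RPKM.

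Glyceraldehyde-3-phosphate dehydrogenase, which oxidises the triose and reduces NAD, held the most abundant member. The gene gapdh stood at 1048, 954 and 1089 RPKM in controls, at 1231 and 1268 RPKM in knockouts 1 and 2 and at 822 RPKM in knockout 3. Again knockouts 1 and 2 were above and knockout 3 below all controls (log2 fold change 0.14 ± 0.19, SE; edgeR adjusted p = 0.895). Its paralogue gapdhs stood at 251, 246 and 337 RPKM in controls, at 295 and 308 RPKM in knockouts 1 and 2 and at 641 RPKM in knockout 3. The 2 paralogues thus lay at opposite ends in knockout 3, while their sum there was within the range of the other 5 libraries. That sum was 1299, 1200.0 and 1427 RPKM in controls and 1526, 1577 and 1463 RPKM in knockouts.

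The next enzyme, phosphoglycerate kinase, makes ATP and is encoded by pgk1. It stood at 109.9, 82.8 and 107 RPKM in controls against 109.9, 115 and 177 RPKM in knockouts. Knockout 1 exceeded control 1 only in the second decimal, so this separation rests on a margin far below the spread between libraries (log2 fold change 0.45 ± 0.22, SE; edgeR adjusted p = 0.71). Phosphoglycerate mutase shifts the phosphate within phosphoglycerate. Its muscle form pgam2 stood at 139, 105 and 127 RPKM in controls, at 145 and 145 RPKM in knockouts 1 and 2 and at 81.7 RPKM in knockout 3. The form pgam1b was higher in every knockout, at 12.5, 12.1 and 19.99 RPKM against 9.55, 10.7 and 11.7 RPKM (log2 fold change 0.52 ± 0.22, SE; edgeR adjusted p = 0.641, and 0.25 without knockout 3). Its relative pgam1a stood at 27.5 to 45.8 RPKM in controls and 44.2 to 48.6 RPKM in knockouts, with overlap.

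Enolase, which forms phosphoenolpyruvate, had higher values in knockouts in its 2 main forms. The ubiquitous form eno1a stood at 100.1, 87.2 and 118 RPKM in controls compared with 122, 121 and 204 RPKM in knockouts (log2 fold change 0.58 ± 0.23, SE; edgeR adjusted p = 0.626). All knockouts were above the controls, and the log2 fold change was 0.30 without knockout 3. The muscle form eno3, the most abundant, stood at 195, 170.2 and 181 RPKM in controls against 217, 225 and 212 RPKM in knockouts. Here the 3 knockouts lay close together and above all controls (log2 fold change 0.30 ± 0.14, SE; edgeR adjusted p = 0.698). The neural form eno2 stood at 9.92 to 12.0 RPKM in controls, at 8.80 and 8.63 RPKM in knockouts 1 and 2 and at 27.7 RPKM in knockout 3. Its log2 fold change of 0.53 turned to -0.25 without knockout 3. The duplicate eno1b followed the same order, at 5.69 to 6.10, 5.03 and 5.44, and 13.6 RPKM.

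Pyruvate kinase closes glycolysis by making pyruvate and ATP. The main form pkmb stood at 146, 135 and 147 RPKM in controls compared with 183, 189 and 163 RPKM in knockouts. The groups did not overlap, and knockout 3 was the lowest knockout (log2 fold change 0.36 ± 0.14, SE; edgeR adjusted p = 0.628). The form pkma was higher in every knockout by a small margin in knockouts 1 and 2, at 48.9 and 49.7 RPKM against 46.5, 44.0 and 47.4 RPKM in controls, and stood at 116 RPKM in knockout 3. Its log2 fold change of 0.67 ± 0.32 (SE; edgeR adjusted p = 0.701) was 0.14 without knockout 3. The summed level of both was 193, 179 and 194 RPKM in controls and 232, 239 and 278 RPKM in knockouts.

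Lactate dehydrogenase, like phosphoglycerate mutase, did not separate the groups, with a summed level of 567 to 697 RPKM in controls and 553 to 652 RPKM in knockouts. The dominant form ldhba stood at 505, 439 and 545 RPKM in controls against 458, 477 and 416 RPKM in knockouts (log2 fold change -0.11 ± 0.16, SE; edgeR adjusted p = 0.901). The form ldha, the subunit typical of muscle in mammals, stood at 144, 125 and 149 RPKM in controls, at 176 and 173 RPKM in knockouts 1 and 2 and at 129 RPKM in knockout 3. The share of ldha in the summed level was 22.1%, 22.1% and 21.4% in controls and 27.7%, 26.6% and 23.4% in knockouts. These shares did not overlap, by a narrow margin in knockout 3, although the RPKM of each gene did. Shares were computed for every step with more than 1 member. They separated the groups only here, in phosphoenolpyruvate carboxykinase and in fructose-bisphosphatase, and no test was run on them. The minor form ldhbb stood at 1.89 to 3.42 RPKM in controls, at 1.80 and 1.82 RPKM in knockouts 1 and 2 and at 7.87 RPKM in knockout 3.

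Step by step, the summed RPKM was above all controls in all 3 knockouts for phosphoglucose isomerase, phosphofructokinase, aldolase, glyceraldehyde-3-phosphate dehydrogenase, phosphoglycerate kinase, enolase, pyruvate kinase and phosphoenolpyruvate carboxykinase. The ratio of knockout to control means for these steps ran from 1.16 for glyceraldehyde-3-phosphate dehydrogenase to 1.52 for phosphoenolpyruvate carboxykinase. All sums hold the members alone, and some margins were narrow. The lowest knockout and highest control were 109.88 and 109.86 RPKM for phosphoglycerate kinase and 89.01 and 87.85 RPKM for phosphoglucose isomerase. They were 1463 and 1427 RPKM for glyceraldehyde-3-phosphate dehydrogenase, 61.8 and 58.6 RPKM for phosphofructokinase, and 618 and 582 RPKM for aldolase. The margin was wider for pyruvate kinase, at 232 and 194 RPKM. Fructose-bisphosphatase, at 0.737, was the step below all controls. Hexokinase, triosephosphate isomerase, phosphoglycerate mutase and lactate dehydrogenase overlapped. For knockouts 1 and 2 alone the ratio ran from 0.781 for fructose-bisphosphatase to 1.27 for phosphoenolpyruvate carboxykinase, and hexokinase stood at 0.964.

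Sorted by tissue form, the members differed most in knockout 3. On the log2 scale with 0.1 RPKM added, knockout 3 minus the mean of knockouts 1 and 2 was 2.14 for aldocb and 1.66 for eno2, the neural forms tested. For the 7 muscle forms it ranged from -0.83 for pgam2 to 1.23 for pkma, with a median of 0.01. In the liver forms it ran from -0.51 for fbp1b to 0.92 for pck1. Among genes without a class it reached 2.06 for ldhbb, 1.36 for eno1b, 1.18 for hk1, 1.13 for pfkpa and 1.09 for gapdhs, and it was lowest at -0.63 for tpi1b and -0.60 for gapdh. In all, 8 of 34 members stood at least 2-fold above knockouts 1 and 2 in knockout 3 (background 6.94%), and 0 stood at least 2-fold below (background 5.79%). With a single library on one side there is no test of this difference. Summed over each class, the neural forms stood at 39.7 to 55.9 RPKM in the other 5 libraries and 185 RPKM in knockout 3. The muscle forms stood at 675 to 747 RPKM in controls and 764 to 779 RPKM in knockouts. The liver forms stood at 168 to 174 and 151 to 159 RPKM. The muscle sums thus lay above, and the liver sums below, those of all controls in each knockout. Most of the liver sum came from fbp1b, at 115 to 132 RPKM in controls and 62.3 to 89.2 RPKM in knockouts. Of the other liver forms, pck1 and gck were above all controls in every knockout, and fbp1a overlapped. The muscle result rests on the class given to pkma: without it the sums overlapped, at 628 to 700.3 RPKM in controls and 656 to 729 RPKM in knockouts, and the range of knockout 3 against knockouts 1 and 2 ended at 0.64. With pkmb added the sums stood at 818 to 893 and 934 to 968 RPKM. Both of these groupings were chosen after the values were seen. Muscle sums with aldoaa or ldha added were not examined, so other choices of class may matter too. Neuron and photoreceptor markers were also highest in knockout 3, as given above, and their part in the values of these forms was not tested.

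Knockouts 1 and 2 were also compared with the controls on their own. They lay above all 3 controls for 15 of 34 members (background 13.6%) and below for 4 (background 19.0%), namely eno1b, eno2, fbp1b and ldhbb. In pfkmb, tpi1b, gapdh, pgam2 and ldha they were above all controls while knockout 3 was not. The other 10 of the 15, eno3 and pkmb among them, were above in all 3 knockouts.

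**Figure D3:**
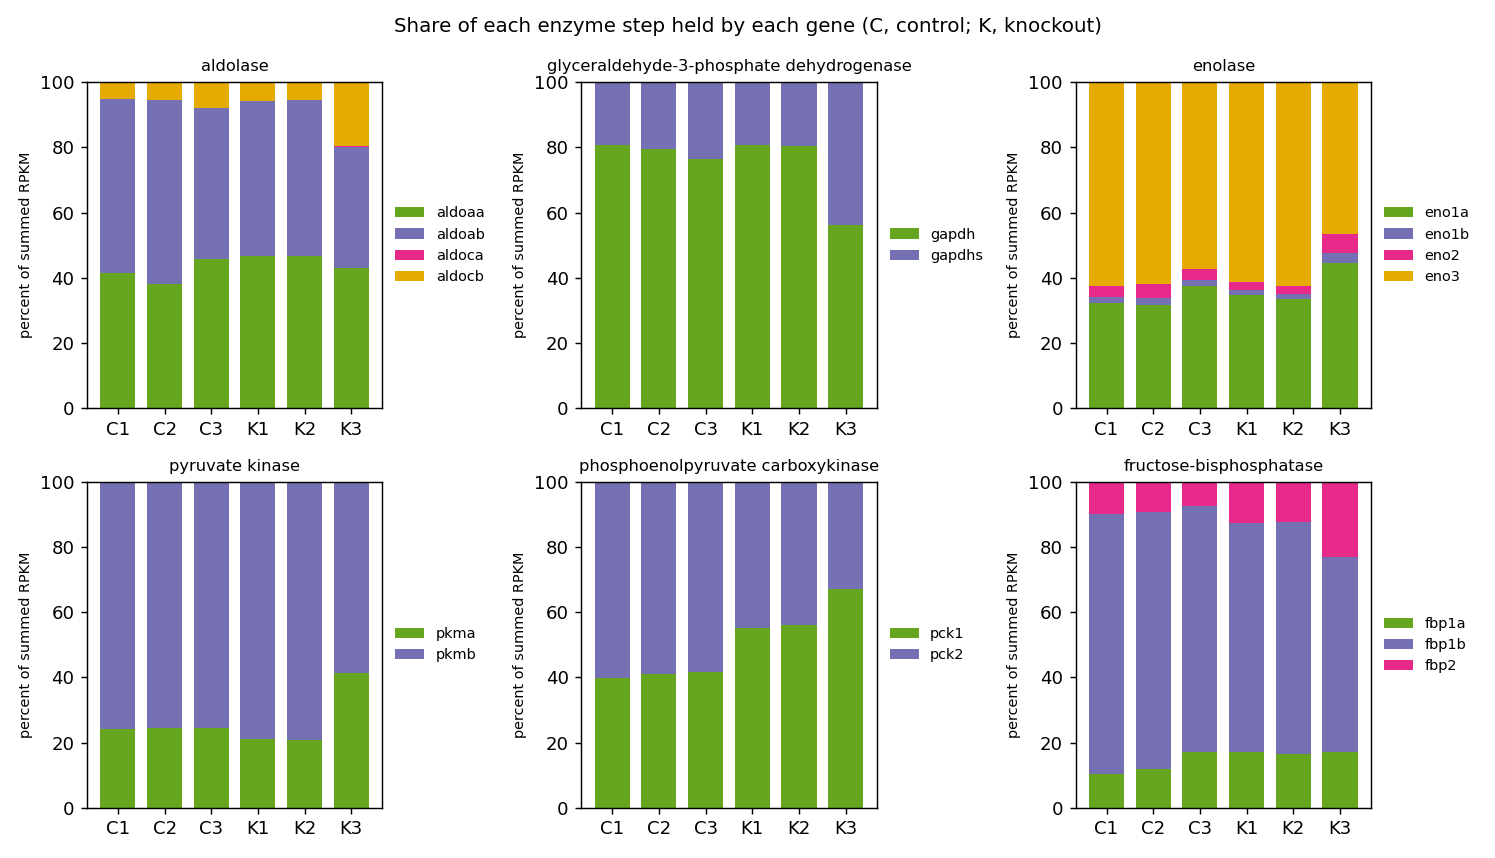
Share of each enzyme step's summed RPKM held by each gene, in percent, for controls (C1 to C3) and knockouts (K1 to K3). The first 4 panels show larger shares of aldocb, gapdhs, eno2 and pkma in K3 than in the other libraries, and the last 2 a larger share of pck1 and a smaller share of fbp1b in all 3 knockouts.

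In shares of a step, aldocb made up 5.09% to 7.85% of aldolase RPKM in the 5 other libraries and 19.6% in knockout 3. The share of gapdhs in its step was 19.3% to 23.7% against 43.8%, and that of pkma was 20.8% to 24.5% against 41.5%. The muscle form eno3 held 57.4% to 62.7% of enolase in the other libraries and 46.5% in knockout 3. For fbp1b the share of its step was 79.6%, 78.8% and 75.4% in controls and 70.6%, 71.2% and 59.7% in knockouts, so it was lower in all 3.

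Around these enzymes, a list of 68 names for transporters, regulators and neighbouring enzymes matched 63 genes, of which 62 could be tested. None passed the threshold by edgeR in either direction. At an unadjusted p under 0.05, 7 were higher (background 4.06%) and 2 lower (background 3.41%). In all, 41 of 62 had a log2 fold change above 0 (background 49.5%), with a median of 0.10. DESeq2 called pfkfb3, slc2a1b and pdk2b higher (background 0.915%) and none lower (background 0.224%).

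The gene pfkfb3, for the enzyme that makes fructose 2,6-bisphosphate, an activator of phosphofructokinase and inhibitor of fructose-bisphosphatase, stood at 4.45, 4.68 and 6.04 RPKM in controls. In knockouts it stood at 9.05, 9.12 and 17.0 RPKM, all above the controls and highest in knockout 3, the order also seen for pck1. Its log2 fold change was 1.25 ± 0.27 (SE; edgeR adjusted p = 0.195), and 0.89 without knockout 3 (edgeR adjusted p = 0.043). The latter fit rests on knockouts 1 and 2, the closest pair of libraries. With the counts of these knockouts summed, the edgeR adjusted p for pfkfb3 was 0.174. The glucose transporter gene slc2a1b stood at 15.9, 12.9 and 13.9 RPKM in controls compared with 21.2, 21.9 and 28.7 RPKM in knockouts (log2 fold change 0.78 ± 0.17, SE; edgeR adjusted p = 0.21). The gene pdk2b, for a kinase that inactivates pyruvate dehydrogenase, stood at 3.57, 7.62 and 4.56 RPKM in controls against 10.8, 10.9 and 12.2 RPKM in knockouts (log2 fold change 1.15 ± 0.26, SE; edgeR adjusted p = 0.212). For each of the 3 genes, every knockout was above every control.

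Glucose 6-phosphatase releases free glucose at the end of gluconeogenesis. Its most abundant gene on the list, g6pca.2, had 19.1, 45.1 and 49.2 RPKM in controls and 44.7, 41.9 and 45.1 RPKM in knockouts, and the groups overlapped (log2 fold change 0.25 ± 0.31, SE; edgeR adjusted p = 0.878). The groups also overlapped for g6pc3, at 1.28 to 2.76 and 2.40 to 3.43 RPKM, and g6pcb was too low to test. These 3 were named after their values were seen. The less abundant g6pca.1 had 3.40, 4.60 and 5.34 RPKM in controls and 7.85, 6.88 and 7.76 RPKM in knockouts. Its log2 fold change was 0.79 ± 0.23 (SE; edgeR adjusted p = 0.397). The fructose transporter gene slc2a5 stood at 1.37 to 1.85 RPKM in controls and 0.45 to 0.90 RPKM in knockouts. The muscle glycogen phosphorylase gene pygma stood at 41.3, 43.5 and 37.8 RPKM in controls compared with 52.0, 54.4 and 66.2 RPKM in knockouts (log2 fold change 0.53 ± 0.15, SE; edgeR adjusted p = 0.367). The malate dehydrogenase genes mdh2 and mdh1aa had log2 fold changes of 0.37 ± 0.14 and 0.33 ± 0.14 (SE). All 8 genes named for an unadjusted p under 0.05 had separate groups. They were picked by p from the same libraries, so this separation adds no further support. Over the whole list the knockouts lay above all controls for 8 of 62 genes and below for 5, against 6.3% and 9.0% of all tested genes.

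**Figure D4:**
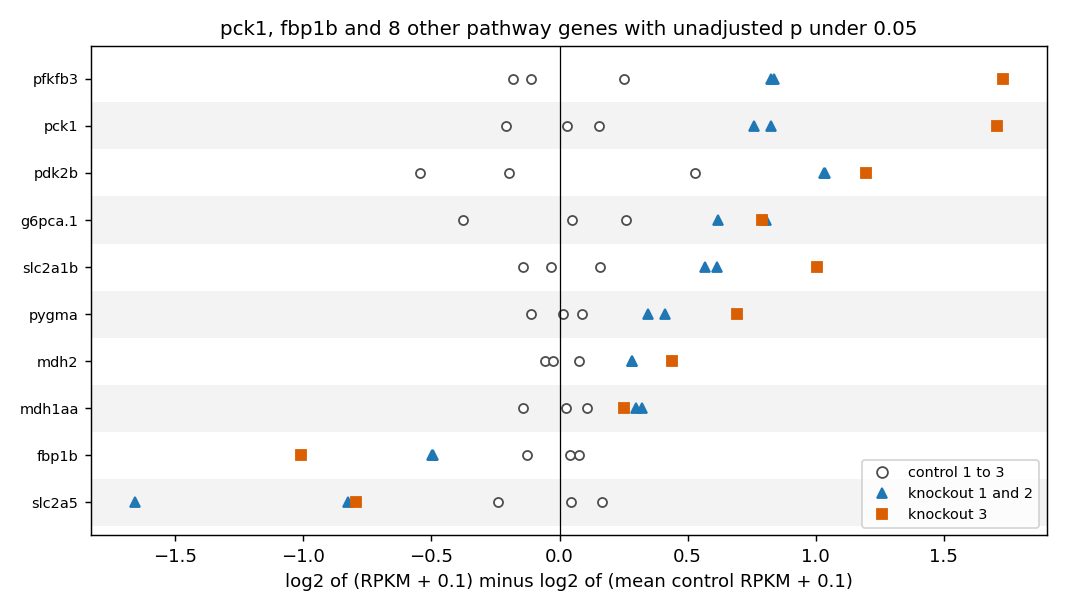
Level of pck1, fbp1b and 8 other pathway genes with an unadjusted p under 0.05 in each library, as log2 of RPKM plus 0.1 relative to the mean of the controls. Symbols are open circles for controls, triangles for knockouts 1 and 2 and a square for knockout 3. The 8 genes in the upper part lie to the right of their controls and fbp1b and slc2a5 to the left.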

How the data were processed

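RNA-seq libraries of 3 knockout and 3 control embryo samples were compared, grouped by their titles. Per the labels' protocols, library preparation used the NEBNext Ultra kit on RNA whose integrity number exceeded 7. Per the submitters' processing notes, Trimmomatic 0.30, HISAT2 2.0.1, HTSeq 0.6.1 and DESeq were used with genome build Zv9; their order, settings and strand option are not given in the sources used here. Reads of duplicate or overlapping genes may be split or shared. The deposited counts per gene were used as deposited, and every row names a gene. RPKM values were deposited too, per the file headers, and the counts, exonic lengths and library totals give them back within 0.005. A further 6 per-sample columns belong to no sample analysed here.

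Counts were filtered with filterByExpr, scaled by TMM and tested with edgeR 4.0.16's robust quasi-likelihood test (R 4.3.3) without covariates, Benjamini-Hochberg adjusted over 20555 genes with a threshold of 0.05. Standard errors derive from the F statistic. DESeq2 1.42.0, DESeq2 size factors, 2 other filters, a replicate block, each library left out, knockouts 1 and 2 summed, a length offset and CPM for summed levels were alternatives. Promoter and protein sequences were not analysed here. Members, lists, forms and alternatives were chosen with earlier results of these data known. Values are given per library for members with an unadjusted p under 0.05, with separate groups, or highest of their step, and pathway genes are named at an unadjusted p under 0.05, except 1 that is counted but not reported here; other members appear as ranges, or per library where knockout 3 stood apart. The chi-square between library pairs used genes with 20 or more reads in sum. Library totals limit precision mainly for gck and aldoca.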

Additional observations from a re-analysis of the deposited data

How the results depend on the processing

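No member was called by edgeR with DESeq2 size factors, other filters, the length offset, knockouts 1 and 2 summed or the replicate block. DESeq2 called 1 member and 3 pathway genes higher; without knockout 3 edgeR called 1 member (pck1) and 1 pathway gene (pfkfb3), so leaving out 1 library gave 0 to 1 for each list. Over all genes, where 21 were higher and 3 lower, no filter gave 47 and 6, DESeq2 188 and 46, and single-library omissions 0 to 165 higher and 0 to 41 lower. The 165 and 41 came without knockout 3, where the closest pair, knockouts 1 and 2, made up the knockout group. With knockouts 1 and 2 summed 16 were higher and 0 lower. The replicate block gave 17 higher and 1 lower, and changed no member's call; same-numbered libraries had correlations of deviations of -0.000145, -0.0587 and -0.0348, and no library correlated best with its own number. The median of the members was 0.20 to 0.44 over single-library omissions, lowest without knockout 3.

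Of 34 member log2 fold changes, 24 kept their sign in every alternative in which they were fitted; gck had no value at a mean RPKM of at least 2, and aldoca none except without a filter. With knockouts 1 and 2 summed, tpi1b was at -0.012 and pgam2 at -0.087. Over single-library omissions the ranges that crossed 0 were -0.11 to 0.60 for hk1, -0.065 to 0.61 for pfkpa, -0.0091 to 0.073 for aldoab, -0.028 to 0.27 for tpi1b, -0.091 to 0.27 for pgam2, -0.14 to 0.71 for eno1b, -0.25 to 0.81 for eno2, -0.42 to 0.99 for ldhbb, -0.056 to 0.13 for pck2 and -0.16 to 0.17 for fbp1a. The ratio of knockout to control for summed glyceraldehyde-3-phosphate dehydrogenase ranged from 1.12 to 1.22. The cause of these changes was not tested. The 9 pathway genes with an unadjusted p under 0.05 kept their sign throughout. CPM in place of RPKM moved no summed level or share by more than 1 SD of the knockouts.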

Other observations

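The row spelled PKLR in capitals, the liver and red cell pyruvate kinase, had 13.9, 14.9 and 19.6 RPKM in controls, and 22.5, 19.6 and 13.7 RPKM in knockouts 1, 2 and 3. Knockout 3 was the lowest of the 6 libraries and knockout 1 the highest, and the groups overlapped (log2 fold change 0.25 ± 0.22, SE; edgeR adjusted p = 0.832).

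The annotation term for the glycolytic process, as carried by the deposited table, marked 34 genes, of which 27 were members. Among the 7 others, chosen after the values were seen, bpgm, the bisphosphoglycerate mutase gene of red cells, had 11.04, 12.7 and 7.67 RPKM in controls, and 7.81, 7.92 and 4.87 RPKM in knockouts. Its log2 fold change was -0.57 ± 0.24 (SE; edgeR adjusted p = 0.657). Blood markers summed to 4786 to 5536 RPKM in controls, to 6222 and 6072 RPKM in knockouts 1 and 2 and to 3640 RPKM in knockout 3. The liver-type phosphofructokinase gene pfkla stood at 6.41, 5.93 and 4.99 RPKM in controls, at 3.48 and 3.56 RPKM in knockouts 1 and 2 and at 6.63 RPKM in knockout 3. Its duplicate pfklb stood at 5.84 to 6.91 and 6.14 to 9.52 RPKM. The hexokinase domain gene hkdc1 stood at 1.91 to 3.39 RPKM in controls and at 2.64, 2.81 and 5.38 RPKM in knockouts. None of the 7 passed the threshold by edgeR, and 2 of them, bpgm included, had an unadjusted p under 0.05 by edgeR.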
